A study of Mus musculus with 23 samples.

Results

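The late-numbered miRNAs of mouse liver were the mature miRNAs whose number in the miRBase registry is 1000 or higher, leaving out miR-1188, miR-1193, miR-1197, miR-3070, miR-3071 and miR-3072, and whose mean over all libraries was at least 1 CPM (the raw count scaled to the total count of its library). Of the 1218 mature miRNAs counted, 566 carried such a number and 75 of these reached the mean of 1 CPM. These 75 entries were chosen by their level over all 23 libraries, so their abundance is a description, and it was not used as a finding. The label of poor conservation was not tested, since no sequence of another species was used.

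Small RNA was sequenced from the liver of 23 F3 male C57bl/6J mice, each of them 1 library. The reference group (n = 8) came from a control lineage whose growing diet held 1% high-oleic sunflower oil, and its mice then ate a low-fat diet, which drew 10% of its energy from fat, during 17 weeks. The HFoleic group (n = 8) came from the same control lineage and ate a diet rich in fat and sucrose, which drew 45% of its energy from fat, over an equal time. The HFepa group (n = 7) received that high-fat diet too, but came from the omega 3 lineage, whose growing diet held 1% fish oil rich in eicosapentaenoic acid (EPA). No low-fat group of the omega 3 lineage was analysed here.

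A miRNA is cut from a hairpin transcript, and either strand of the hairpin (the 5p and the 3p arm) can be loaded into an Argonaute protein, where the seed, bases 2 to 8, pairs with target mRNAs. Numbers were given in the order of registration, and many late entries came from deep sequencing alone. Besides the usual route through Drosha, some hairpins are released by splicing as short introns (mirtrons), and others lie within small nucleolar RNAs (snoRNA) or small Cajal body RNAs (scaRNA), which guide the modification of ribosomal and spliceosomal RNA. In liver, which is dominated by miR-122, few of these entries have an established function.

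Sequences of 64 of the 75 were found in the RefSeq table of build GRCm38.p6, with their host genes from GENCODE M21. The first set holds the entries that passed the test in a comparison with the reference group and have a sequence there. Capitals mark the seed in this set and in the next 3.
miR-1843b-3p: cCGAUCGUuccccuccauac
miR-7068-3p: uCACCCUGgacugacucucag
miR-3082-3p: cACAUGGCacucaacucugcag
miR-1198-5p: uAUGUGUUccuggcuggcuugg
miR-1981-5p: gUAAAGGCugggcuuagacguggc
miR-1964-3p: cCGACUUCugggcuccggcuuu
miR-8114: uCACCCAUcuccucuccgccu
No 2 of these 7 shared a seed. miR-1843b-3p lies at chr1:159340400-159340419 on the plus strand, in an exon of Scarna3a within an intron of Cop1. miR-7068-3p lies at chr8:72470016-72470036 on the minus strand within Cherp, and miR-3082-3p at chr17:25831366-25831387 on the minus strand within Stub1, where both stretches are also annotated as exonic in a transcript that keeps the intron. miR-1198-5p is in an intron of Gripap1 (chrX:7807142-7807163, plus strand), miR-1981-5p in an intron of Marc2 (chr1:184822465-184822488, minus strand) and miR-1964-3p in an intron of Zfp84 (chr7:29773344-29773365, plus strand). miR-8114 overlaps an untranslated exon of Glul, the glutamine synthetase gene (chr1:153899989-153900009, plus strand). miR-5099, miR-1948-3p and miR-1839-3p, which also passed, had no entry.

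The second set shows 3 abundant entries from scaRNA genes.
miR-1839-5p: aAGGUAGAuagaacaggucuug
miR-1843a-5p: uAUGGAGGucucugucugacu
miR-1843b-5p: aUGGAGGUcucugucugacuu
The last 2 of these share a run of 20 bases that starts at base 2 of miR-1843a-5p and at base 1 of miR-1843b-5p, so the seeds differ by a shift of 1 base. Reads that hold only this run match both the Scarna3b gene on chromosome 12 and the Scarna3a gene on chromosome 1. How such reads were counted was not examined, and both counts are uncertain for that reason.

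The third set shows 2 entries beside the miRNA annotated on the opposite strand of the same locus.
miR-3074-2-3p: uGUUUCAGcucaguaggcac
miR-24-2-5p: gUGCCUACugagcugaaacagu
miR-3065-5p: uCAACAAAaucacugaugcugg
miR-338-3p: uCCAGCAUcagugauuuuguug
In genome coordinates the first pair overlaps by 20 bases (chr8:84208839-84208858, minus strand, for miR-3074-2-3p) and the second pair by 21 bases (chr11:120014780-120014801, plus strand, for miR-3065-5p).

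The fourth set holds the 6 tested entries with the largest spread beyond counting error within groups, chosen after their values were seen.
miR-6240: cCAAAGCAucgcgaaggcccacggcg
miR-6236: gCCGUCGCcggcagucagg
miR-6538: cGCGGGCUccggggcggcg
miR-6238: uUAUUAGUcaguggaggaaaug
miR-2137: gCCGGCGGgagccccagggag
miR-5126: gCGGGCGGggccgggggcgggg
All but miR-6238 had a GC content of 69.2% or more, and miR-5126 held only G and C.

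The fifth set illustrates entries whose 3' end is the end of an annotated intron; here the capitals mark the last 2 bases, the AG of the splice acceptor.
miR-7015-3p: ucucacuguccucugcacuAG
miR-7046-3p: ugaaccacccaucccccuacAG
miR-6978-3p: acggcuucacucucacccugcAG
miR-1982-3p: ucucacccuauguucucccacAG
They end introns of Smap2, Rabac1, C3 and Oaz1, genes of membrane trafficking, complement and polyamine control.

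Read totals of the libraries were 5242218 to 8139344 counts in the reference group, 4340903 to 7220112 in HFoleic and 3725432 to 4947990 in HFepa. A level of 1 CPM thus stood for 3.73 to 8.14 reads, and counting error alone was large for the rare entries. Levels below are CPM scaled with TMM factors, which adjust the totals for differences in composition. The 3 hepatocyte miRNAs miR-122-5p, miR-192-5p and miR-194-5p summed to 209671 to 265724 CPM in all libraries but library 3 of the reference group, where they came to 112912 CPM. All 3 were found in every library. In library 3 the 5 stellate cell and fibroblast miRNAs summed to 42509 CPM against a median of 25749 over all libraries, the 5 biliary ones to 1094 CPM against 216 CPM, and the 6 leukocyte ones to 3557 CPM against 2097 CPM. The 3 red blood cell miRNAs summed to 3462 to 8490 CPM and the 2 endothelial ones to 13887 to 26007 CPM, both lowest in library 3. The 3 pancreatic markers, of which 1 was found in every library, reached 2021 CPM in library 5 against a median of 15.6 CPM, and the 3 muscle markers, again with 1 in every library, 214.9 CPM in library 4 against 5.24 CPM. In bulk liver, fewer cells of a type and less RNA per cell cannot be told apart.

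The 75 entries took 0.322% ± 0.114 (SD, n = 8) of all counts in the reference group, 0.276% ± 0.0337 (SD, n = 8) in HFoleic and 0.300% ± 0.0514 (SD, n = 7) in HFepa. The single entry miR-6240 supplied 23.3% of their pooled counts, and without it the shares were 0.224% ± 0.0139, 0.228% ± 0.0175 and 0.243% ± 0.0116. Only 8 of the 75 had a mean above 100 CPM, 17 lay between 10 and 100 CPM and 50 between 1 and 10 CPM. At the edge of the rule, miR-1982-3p, miR-3061-5p and miR-3084-5p were kept with means of 1.20, 1.18 and 1.003 CPM, and miR-1306-5p, miR-5122 and miR-3060-3p were left out with 0.986, 0.967 and 0.895 CPM.

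**Figure D1:**
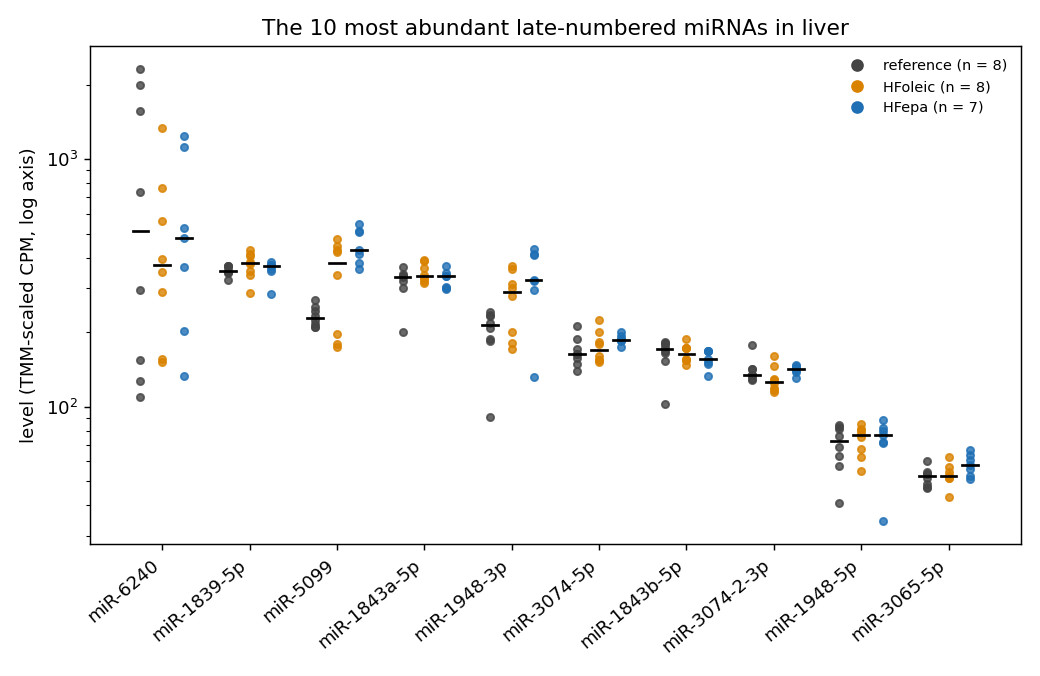
Level of the 10 most abundant late-numbered miRNAs in every library, in TMM-scaled CPM on a log axis, with a bar at the median of each group. miR-6240 spans 109.3 to 2321 CPM, while miR-5099 sits at 209.7 to 268.4 CPM in the reference group and at 361.0 to 546.3 CPM in HFepa.

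Among the most abundant entries, the 3 of the second set, from scaRNA genes, had close medians in the 3 groups. miR-1839-5p had medians of 353 CPM in the reference group (326 to 371 CPM), 380 CPM in HFoleic (289 to 430 CPM) and 369 CPM in HFepa (285 to 383 CPM), and the 3 groups overlapped. miR-1843a-5p had medians of 334, 336 and 336 CPM and miR-1843b-5p of 170, 164 and 155 CPM. Both were lowest in library 3 of the reference group, with 200.8 and 102.6 CPM. For these 3 entries the log2 fold changes lay between -0.09 and 0.13 over the 3 comparisons and none passed the test. The gap between neighbours in the order of levels was often within the spread: miR-1839-5p, miR-5099 and miR-1843a-5p had means of 362, 333 and 330 CPM with ranges that overlapped.

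The comparison of HFoleic with the reference group asks what the high-fat diet changed within the control lineage. In the quasi-likelihood test of edgeR, adjusted by Benjamini-Hochberg over all 386 miRNAs that passed the filter on low counts, a call required an adjusted p below 0.05 together with a log2 fold change of more than 0.25 in either direction. Of the 75 entries, 65 passed the filter, and 3 of these 65 were called, 2 higher and 1 lower, while 12.4% of all tested miRNAs were called (4.92% higher and 7.51% lower). The other 10, with means of up to 1.55 CPM, were too rare to be tested. The median log2 fold change was 0.00 for the 65 and 0.00 for all tested miRNAs, and 9 of the 65 had an unadjusted p under 0.05. The count was 1 without library 1, 5, 6 or 8 of the reference group or library 14, 15 or 23 of HFoleic. It was 5 without library 10. Over all tested miRNAs these fits called 12 to 49, against 48 with every library.

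The comparison of HFepa with the reference group contrasts both diet and lineage. Here 10 of the 65 were called, 4 higher and 6 lower, a share of 15.4% beside 15.8% of all tested miRNAs. Of all tested miRNAs 5.18% were called higher and 10.6% lower. The median log2 fold change was -0.04 for the 65 and -0.06 for all tested, and 12 of the 65 had an unadjusted p under 0.05. The count was 5 without library 5, 16 or 17 and 6 without library 18, 20 or 22. Over all tested miRNAs these fits called 32 to 41, against 61 with every library. Both comparisons use the same 8 reference libraries, and all 3 entries called in HFoleic were also among the 10.

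**Figure D2:**
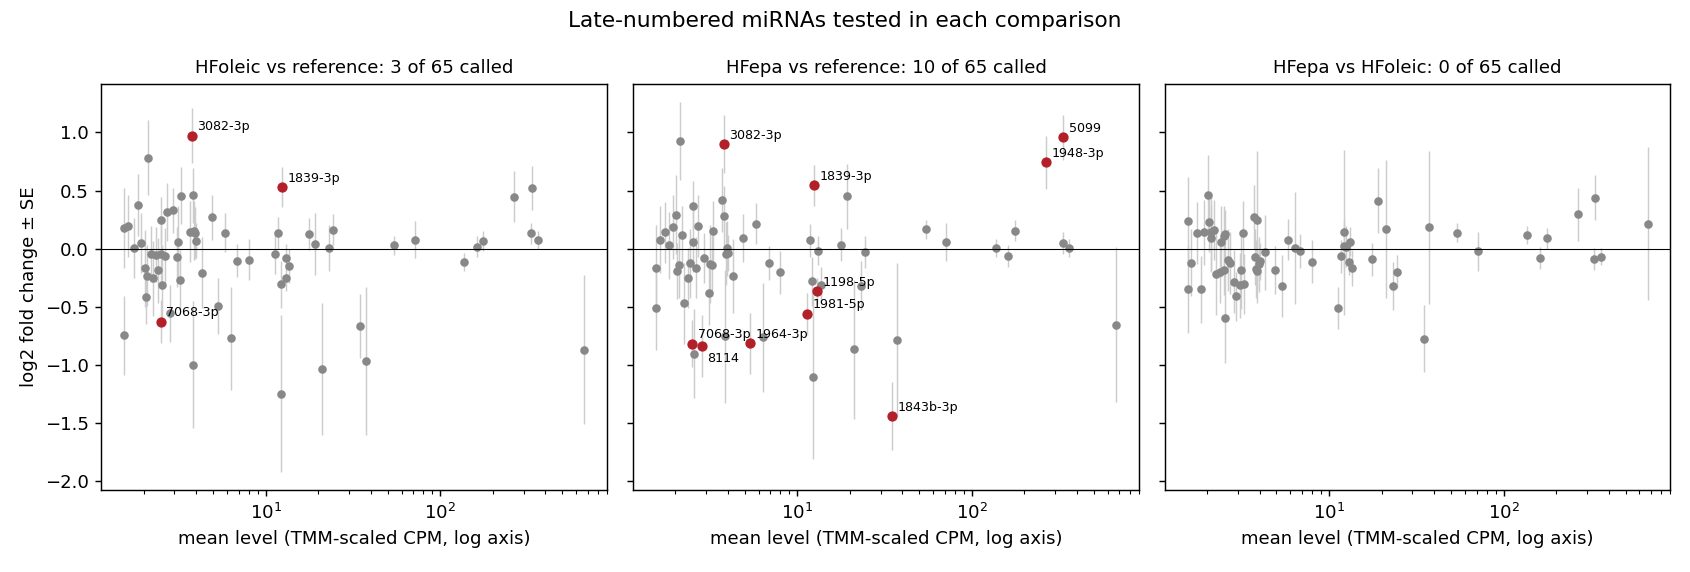
Log2 fold change ± SE of the 65 tested late-numbered miRNAs against their mean level (TMM-scaled CPM, log axis) in the 3 comparisons; red points are the called entries with their number. The panels show 3, 10 and 0 called entries, with the largest change at -1.44 for miR-1843b-3p in HFepa vs reference.

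miR-5099 was the called entry with the highest level. It ranged from 209.7 to 268.4 CPM in the reference group (median 227 CPM), from 173.9 to 473.6 CPM in HFoleic (median 380 CPM) and from 361.0 to 546.3 CPM in HFepa (median 431 CPM). Every HFepa library was above every reference library, whereas the HFoleic libraries lay below or above the reference range and not within it. The log2 fold change was 0.96 ± 0.19 in HFepa (adjusted p = 0.00285) and 0.52 ± 0.19 in HFoleic (adjusted p = 0.078, not called). Groups that did not overlap were found in HFepa vs reference for 4.66% of all tested miRNAs and for 3 of the 65, namely miR-5099, miR-7068-3p and miR-1843b-3p.

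miR-1948-3p, the more abundant arm of its hairpin, ranged from 91.1 to 241.3 CPM in the reference group (median 213 CPM), from 170.8 to 371.3 CPM in HFoleic (median 291 CPM) and from 131.8 to 432.5 CPM in HFepa (median 325 CPM). The lowest reference value was library 3 and the lowest HFepa value was library 19, and the other HFepa libraries lay above all reference libraries. Its log2 fold change was 0.74 ± 0.23 in HFepa (adjusted p = 0.034) and 0.45 ± 0.22 in HFoleic (adjusted p = 0.188, not called). Without library 3 the value in HFepa was 0.63 (adjusted p = 0.0462), and without library 19 it was 0.88 (adjusted p = 0.00602). The call was lost without library 5, 16, 17 or 18, with an adjusted p of up to 0.0623.

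A pair of rarer entries were higher in both high-fat groups. miR-3082-3p, from the Stub1 gene of a protein quality control ubiquitin ligase, ranged from 1.45 to 3.30 CPM in the reference group, from 2.97 to 6.84 CPM in HFoleic and from 1.43 to 6.80 CPM in HFepa. Its log2 fold change was 0.97 ± 0.24 for HFoleic (adjusted p = 0.0174), beside 0.90 ± 0.25 for HFepa (adjusted p = 0.0205), and 1 HFepa library, number 19, lay just under the reference range. Without library 20 the adjusted p in HFepa was 0.0522. miR-1839-3p, the rarer arm of a scaRNA-derived hairpin, ranged from 7.45 to 12.3 CPM in the reference group, from 9.24 to 19.2 CPM in HFoleic and from 8.95 to 21.99 CPM in HFepa. The log2 fold changes of miR-1839-3p were 0.53 ± 0.17 (adjusted p = 0.0464) and 0.54 ± 0.18 (adjusted p = 0.0358), with overlapping groups. Leaving out 1 library ended the call in 15 of 23 fits for HFoleic (log2 fold changes 0.46 to 0.61), and in HFepa without library 4, 8, 17, 18 or 20 (0.40 to 0.63 over all fits).

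miR-1843b-3p had the largest change of all the called entries. It ranged from 26.1 to 71.7 CPM in the reference group (median 51.7 CPM), from 13.8 to 56.7 CPM in HFoleic (median 24.1 CPM) and from 13.1 to 23.8 CPM in HFepa (median 19.9 CPM). All HFepa libraries were below all reference libraries, with a log2 fold change of -1.44 ± 0.29 (adjusted p = 0.00285). In HFoleic it was -0.66 ± 0.27 (adjusted p = 0.116, not called).

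miR-7068-3p, at the end of a Cherp intron, was called lower in both high-fat groups by edgeR, in HFoleic as the 1 entry called lower. It ranged from 2.50 to 4.21 CPM in the reference group, from 0.947 to 3.33 CPM in HFoleic and from 1.52 to 2.36 CPM in HFepa, so that HFepa and the reference group did not overlap. The log2 fold change was -0.63 ± 0.19 for HFoleic (adjusted p = 0.0301), beside -0.82 ± 0.20 for HFepa (adjusted p = 0.0102). The call in HFoleic was lost without library 1, 5, 6, 8, 14, 15 or 23, with an adjusted p of up to 0.0631. It was also lost with DESeq2 (log2 fold change -0.62, adjusted p = 0.0689) and with limma after quantile normalization (-0.59, adjusted p = 0.0525). At this depth such levels rest on few reads per library.

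The other 4 entries called lower in HFepa changed less or were rare. miR-1198-5p ranged from 11.6 to 17.5 CPM in the reference group, from 8.92 to 14.2 CPM in HFoleic and from 9.07 to 12.6 CPM in HFepa, with log2 fold changes of -0.25 ± 0.11 (adjusted p = 0.131) and -0.37 ± 0.11 (adjusted p = 0.034) against the reference group. miR-1981-5p ranged from 9.95 to 15.3 CPM, from 7.71 to 15.46 CPM and from 4.03 to 11.8 CPM in the same order, and its log2 fold change in HFepa was -0.56 ± 0.18 (adjusted p = 0.0342). The values of all 3 groups overlapped for both. Leaving out 1 library ended the call in HFepa in 9 of 23 fits for each: libraries 1, 5, 6, 13, 16, 19, 20, 21 and 22 for miR-1198-5p, and 1, 5, 6, 16, 17, 18, 19, 21 and 22 for miR-1981-5p.

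miR-1964-3p ranged from 5.45 to 8.58 CPM in the reference group, from 2.61 to 8.05 CPM in HFoleic and from 2.24 to 6.58 CPM in HFepa, with a log2 fold change of -0.81 ± 0.26 in HFepa (adjusted p = 0.0342). miR-8114, whose sequence lies in an untranslated exon of Glul, ranged from 2.92 to 5.04 CPM, from 1.22 to 4.05 CPM and from 0.709 to 3.81 CPM, with a log2 fold change of -0.84 ± 0.27 in HFepa (adjusted p = 0.0342). The call of miR-1964-3p was lost without library 5, 8, 16, 17, 19, 20 or 22, and that of miR-8114 without library 1, 2, 3, 5, 16, 17, 18, 21 or 22. Reads of Glul mRNA fragments and of miR-8114 cannot be told apart by sequence there.

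The third comparison, HFepa with HFoleic, contrasts the lineages on the same diet. edgeR's quasi-likelihood test called 0 of the 65 and 0% of all tested miRNAs, and 3 of the 65 had an unadjusted p under 0.05. DESeq2 called 0 with 4 at that level, and limma after quantile normalization 0 with 3. The 3 in edgeR were miR-1981-5p with a log2 fold change of -0.51 ± 0.18, miR-1843b-3p with -0.77 ± 0.29 and miR-5099 with 0.44 ± 0.19, and their adjusted p-values were 0.525, 0.574 and 0.699. These differences did not exceed the spread between mice by this test, which does not show that the levels were equal.

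The library numbers in the labels run with the groups. The reference libraries are numbered 1 to 8 and the HFepa libraries 16 to 22, while HFoleic holds 9 to 11 and also 12 to 15 and 23. What the numbers stand for is not given in the sources used here, and the division between 11 and 12 was taken over from earlier results of these data.

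Within HFoleic, on 1 diet and in 1 lineage, the levels in libraries 9 to 11 and from number 12 on did not overlap for 4 of the 10 called entries, miR-5099, miR-1843b-3p, miR-1948-3p and miR-8114. They did not overlap for 9 of the 65 tested entries and for 63 of the other 321 tested miRNAs. miR-5099 measured 173.9 to 196.7 CPM in the 3 HFoleic libraries up to number 11 and 339.9 to 473.6 CPM in the 5 from number 12 on. The first range lay below that of the reference group (209.7 to 268.4 CPM), and the second overlapped that of HFepa (361.0 to 546.3 CPM). For miR-1843b-3p the same libraries gave 51.7 to 56.7 CPM and 13.8 to 25.02 CPM, for miR-1948-3p 170.8 to 200.4 CPM and 280.1 to 371.3 CPM, and for miR-8114 3.12 to 4.05 CPM and 1.22 to 2.40 CPM. The other 6 called entries overlapped, such as miR-7068-3p with 1.92 to 3.33 CPM and 0.947 to 2.74 CPM, and miR-3082-3p with 2.97 to 4.55 CPM and 3.71 to 6.84 CPM. Over all 23 libraries, the levels up to number 11 and from number 12 on did not overlap for 2 of the 65, miR-5099 and miR-1843b-3p, and for 9 of the other 321 tested miRNAs.

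A 2-level term for the library number (up to 11 against 12 on) was added to the fit. With it, edgeR called 0 of the 65 in HFoleic and 0 in HFepa against the reference group. At an unadjusted p under 0.05 there were 3 and 2. Only HFoleic has libraries in both parts, 3 and 5. HFepa vs reference with this term therefore rests on that split, and the fit can detect less. Of all 386 tested miRNAs, 1 and 0 were called with this term, against 48 and 61 without it. The log2 fold change in HFepa was then -0.25 for miR-5099, -0.08 for miR-1948-3p and 0.01 for miR-1843b-3p. In libraries 12 to 23 alone, where both lineages on the high-fat diet are present, the log2 fold change of HFepa vs HFoleic was 0.10 for miR-5099 (adjusted p = 0.879) and 0.04 for miR-1948-3p (adjusted p = 0.993). In HFepa vs reference, group and library number cannot be told apart.

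**Figure D3:**
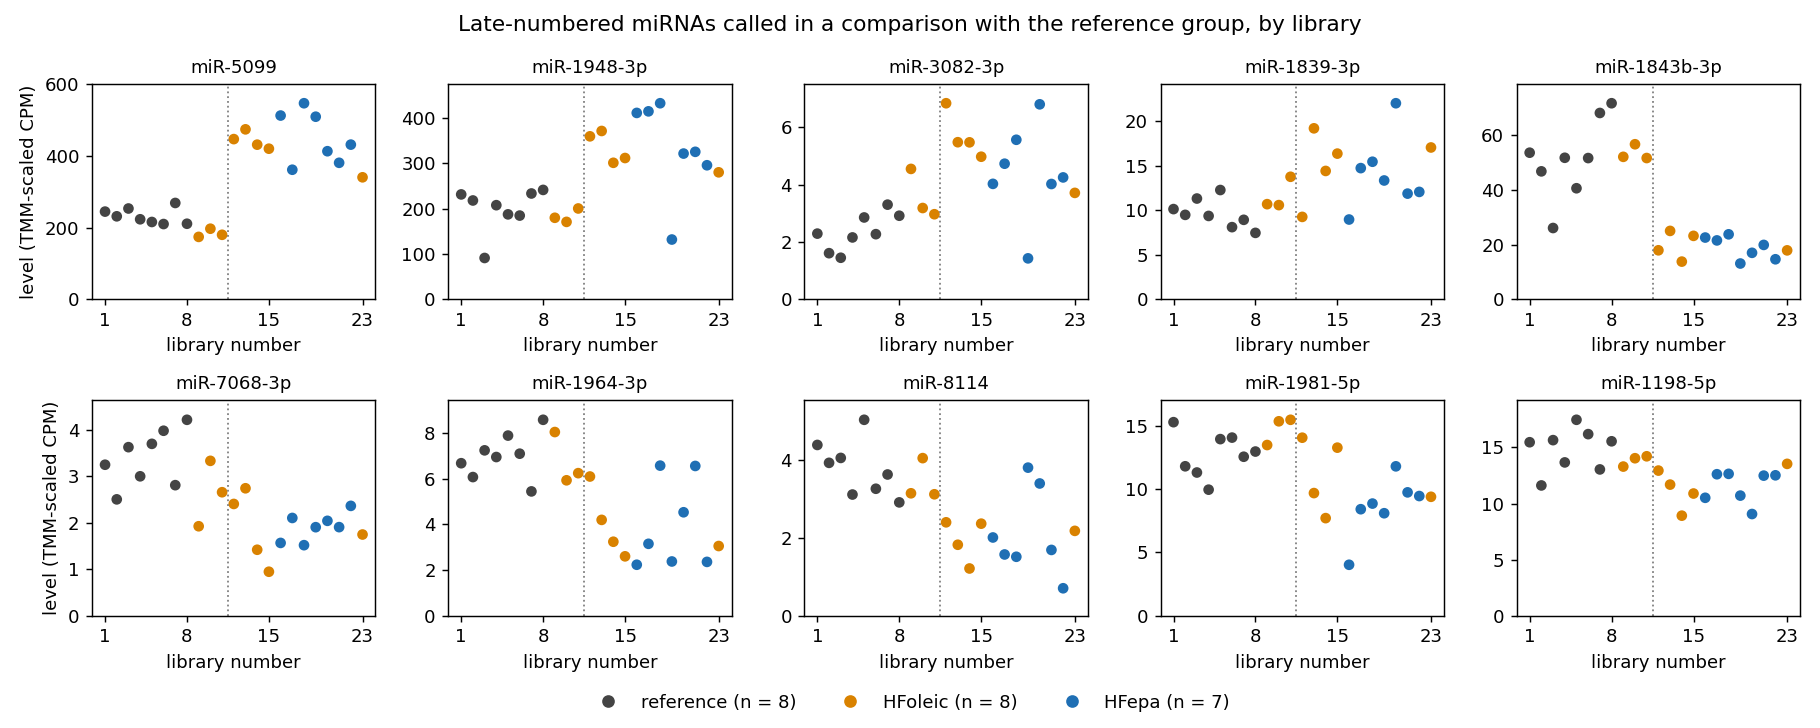
Level (TMM-scaled CPM, linear axis from 0) of the 10 called late-numbered miRNAs in each library, placed by library number and coloured by group; the dotted line divides numbers up to 11 from 12 on. The 3 HFoleic libraries left of the line have 173.9 to 196.7 CPM of miR-5099 and the 5 right of it 339.9 to 473.6 CPM.

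The 2 arms of a hairpin are made from 1 precursor, and their ratio within a library does not depend on the library total. For the 11 hairpins with both arms among the 75, the log2 ratio of 3p to 5p counts (0.5 added to each) was compared between groups by a two-sided exact permutation test, with Benjamini-Hochberg adjustment over 33 tests. This comparison was chosen after the values of the arms were seen. Of the 33 tests, 3 had an adjusted p under 0.05, all of them in HFepa vs reference.

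For miR-1948 the mean log2 ratio was 1.51 ± 0.15 (SD, n = 8) in the reference group, 1.85 ± 0.25 (SD, n = 8) in HFoleic and 2.17 ± 0.21 (SD, n = 7) in HFepa. The difference between HFepa and the reference group was 0.67 (exact permutation p = 0.000311, adjusted 0.00513) and that between HFoleic and the reference group 0.34 (exact permutation p = 0.00653, adjusted 0.0538). The 5p arm differed little between groups: miR-1948-5p had medians of 72.6, 76.8 and 76.5 CPM and a log2 fold change of 0.06 ± 0.17 in HFepa. Within HFoleic it measured 55.1 to 67.5 CPM in libraries 9 to 11 and 75.2 to 84.7 CPM from number 12 on, without overlap. The ratio was 1.16 to 1.68 in libraries 1 to 11 and 1.79 to 2.44 in libraries 12 to 23, with libraries 3 and 19 included in these ranges.

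For miR-1843b the mean log2 ratio was -1.70 ± 0.24 (SD, n = 8) in the reference group, -2.54 ± 0.77 (SD, n = 8) in HFoleic and -3.06 ± 0.31 (SD, n = 7) in HFepa. HFepa was lower than the reference group by a difference of -1.36 (exact permutation p = 0.000311, adjusted 0.00513). The ratio lay between -1.97 and -1.31 in libraries 1 to 11 and between -3.64 and -2.73 in libraries 12 to 23, and within the latter the difference between HFepa and HFoleic was 0.00. The 5p arm is the one that shares 20 bases with miR-1843a-5p, so its count may hold reads of the other gene.

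For miR-1839 the difference between HFepa and the reference group was 0.51 (exact permutation p = 0.00435, adjusted 0.0479), from -5.21 ± 0.28 (SD, n = 8) to -4.70 ± 0.33 (SD, n = 7). For miR-1981, where the rarer 5p arm was called and the 3p arm had a log2 fold change of 0.04 ± 0.14, the difference in the ratio was 0.62 (exact permutation p = 0.0162, adjusted 0.0729). Within libraries 12 to 23 the differences between HFepa and HFoleic were 0.16 for miR-1948, -0.08 for miR-1839 and 0.20 for miR-1981. Within libraries 1 to 11, those between HFoleic and the reference group were 0.07, 0.18 and -0.17.

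**Figure D4:**
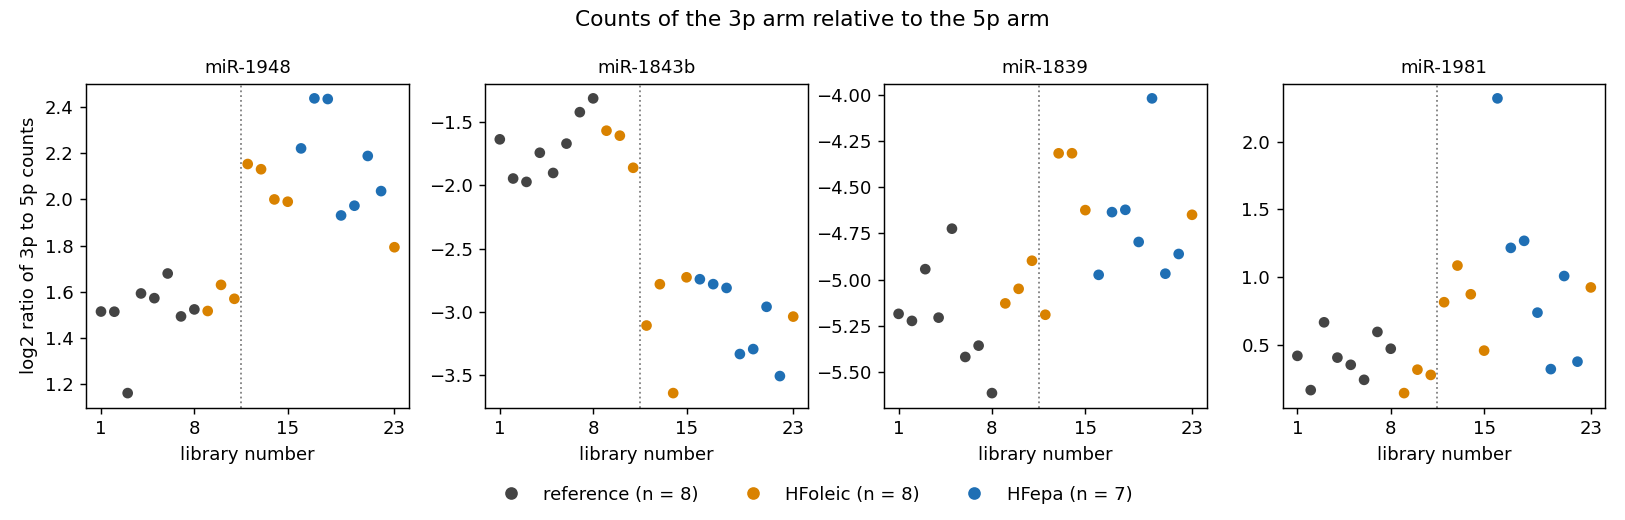
Log2 ratio of 3p to 5p counts (0.5 added to each count) in each library for 4 hairpins, placed by library number and coloured by group, each panel with its own axis. For miR-1948 and miR-1843b the points left of the dotted line (libraries 1 to 11) and right of it (12 to 23) do not overlap.

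In their place in the genome the late-numbered miRNAs differed from the other miRNAs of the same minimum level. Of the 64 with a sequence, 13 (20.3%) overlapped a snoRNA or scaRNA on the same strand, against 3 of 318 (0.943%) other miRNAs. These 318 are the ones placed in the genome here, out of 360 other miRNAs at the same minimum level. The 3' end of 13 (20.3%) fell within 2 bases of the end of an annotated intron, against 1 of 318 (0.314%). The numbers compare annotations and were not tested.

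Of the 13 entries in snoRNA or scaRNA genes, 12 were tested, 0 were called in HFoleic and 1, miR-1843b-3p, in HFepa against the reference group, where 12.4% and 15.8% of all tested miRNAs were called. The 13 do not hold miR-1839-3p, which has no sequence entry and was called. Besides miR-1839-5p and the 4 arms of miR-1843a and miR-1843b they were miR-3068-3p and miR-3068-5p in a snoRNA within Alkbh1, miR-3084-3p and miR-3084-5p in Snora19 and the snoRNA Gm23658, miR-3535 in a snoRNA of Ncl, miR-5121 in Snord33, miR-6516-5p in a scaRNA of Snhg20 and miR-1291 in Snora34. These were named after their values were seen. The count of these entries may include fragments of the host RNA, and the files do not separate them. Their median log2 fold change was 0.13 in HFoleic and -0.01 in HFepa against the reference group.

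At an intron end lay 14 entries, of which 11 ended in AG exactly at the 3' end of the intron, 1 more (miR-6948-3p) within 1 base of it and miR-1981-3p within 2 bases, while miR-1981-5p began at the first base of the same 82-base intron of Marc2. The shortest introns had 74 bases, in Cherp (miR-7068-3p) and Oaz1 (miR-1982-3p), and the longest of them 1589 bases, in Rassf4 (miR-7043-3p). Their mean levels ran from 1.20 to 17.7 CPM. Of the 14, 10 were tested: miR-3082-3p was called higher and miR-7068-3p lower in both comparisons with the reference group, and miR-1981-5p was called lower in HFepa. These are 2 and 3 of the 10, beside 12.4% and 15.8% of all tested miRNAs. Their median log2 fold change was -0.09 in HFoleic and -0.18 in HFepa.

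Of the 64 entries, 8 lay opposite another listed miRNA, and the deposited counts of several such pairs were nearly the same. miR-3074-2-3p had 17043 counts over all libraries and miR-24-2-5p had 17109. The counts of the pair were equal in 5 of 23 libraries and differed by at most 7 in any library. miR-3065-5p had 6706 counts and miR-338-3p 6749, equal in 9 libraries with a largest difference of 8. For the opposite arms of that locus, miR-3065-3p had 455 and miR-338-5p 443 counts.

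With such counts the reads of the 2 strands cannot be told apart, and the mean levels of 137 CPM for miR-3074-2-3p and 54.3 CPM for miR-3065-5p cannot be assigned to the late-numbered strand. miR-3074-5p, opposite miR-24-3p, had 21836 counts against 49651, or 38.2% to 52.1% of the opposite count in a library, and is uncertain too. The 4 arms of miR-3073a and miR-3073b, which lie opposite each other in an intron of Aspg, had 237 to 608 counts. The remaining entry of the 8, miR-5615-3p, lay opposite miR-5615-5p of its own name. None of the 8 was called, beside 12.4% of all tested miRNAs in HFoleic and 15.8% in HFepa against the reference group. With so few entries this does not set them apart. Their log2 fold changes ran from -0.18 to 0.37 over the 3 comparisons.

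The 6 entries of the fourth set were highest in the same libraries, across all groups. miR-6240 ranged from 109.3 CPM in library 8 to 2321 CPM in library 5, both of them reference mice, a 21.2-fold span. Within the groups it ran from 109.3 to 2321 CPM in the reference group (median 514 CPM), from 151.6 to 1329 CPM in HFoleic (median 372 CPM) and from 133.0 to 1239 CPM in HFepa (median 479 CPM). The 5 libraries with the highest level, numbers 2, 3, 5, 11 and 17, were the same for all 6 entries and come from all 3 groups. miR-6236 stayed at 3.81% to 8.44% of the miR-6240 count and miR-6238 at 0.989% to 2.57%, while miR-6538 lay at 2.22% to 7.81%, miR-2137 at 0.385% to 3.58% and miR-5126 at 0.296% to 1.93%. The libraries with the lowest level differed, number 8 for miR-6240 and miR-5126, 15 for miR-6236, 7 for miR-6238 and 22 for miR-6538 and miR-2137.

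The biological coefficient of variation of the 6, the spread beyond counting error within groups, was 59.7% to 88.5%, the 6 highest values among the 65 tested entries. The 6 were chosen after their values were seen, so this rank and their shared libraries are a description. The highest of another entry was 43.4%, and the medians were 26.6% for the 65 and 21.1% for the other tested miRNAs. None of the 6 was called, where 12.4% of all tested miRNAs were called in HFoleic and 15.8% in HFepa against the reference group. With 6 entries this does not set them apart. In HFepa vs reference the log2 fold changes lay between -1.10 and -0.65, and in HFoleic vs reference between -1.24 and -0.77. miR-6240 had a standard error of 0.64 in HFoleic. Library 3 also had the low hepatocyte and high stellate markers given above and library 5 the pancreatic ones, and the part of these in the 6 entries was not tested.

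**Figure D5:**
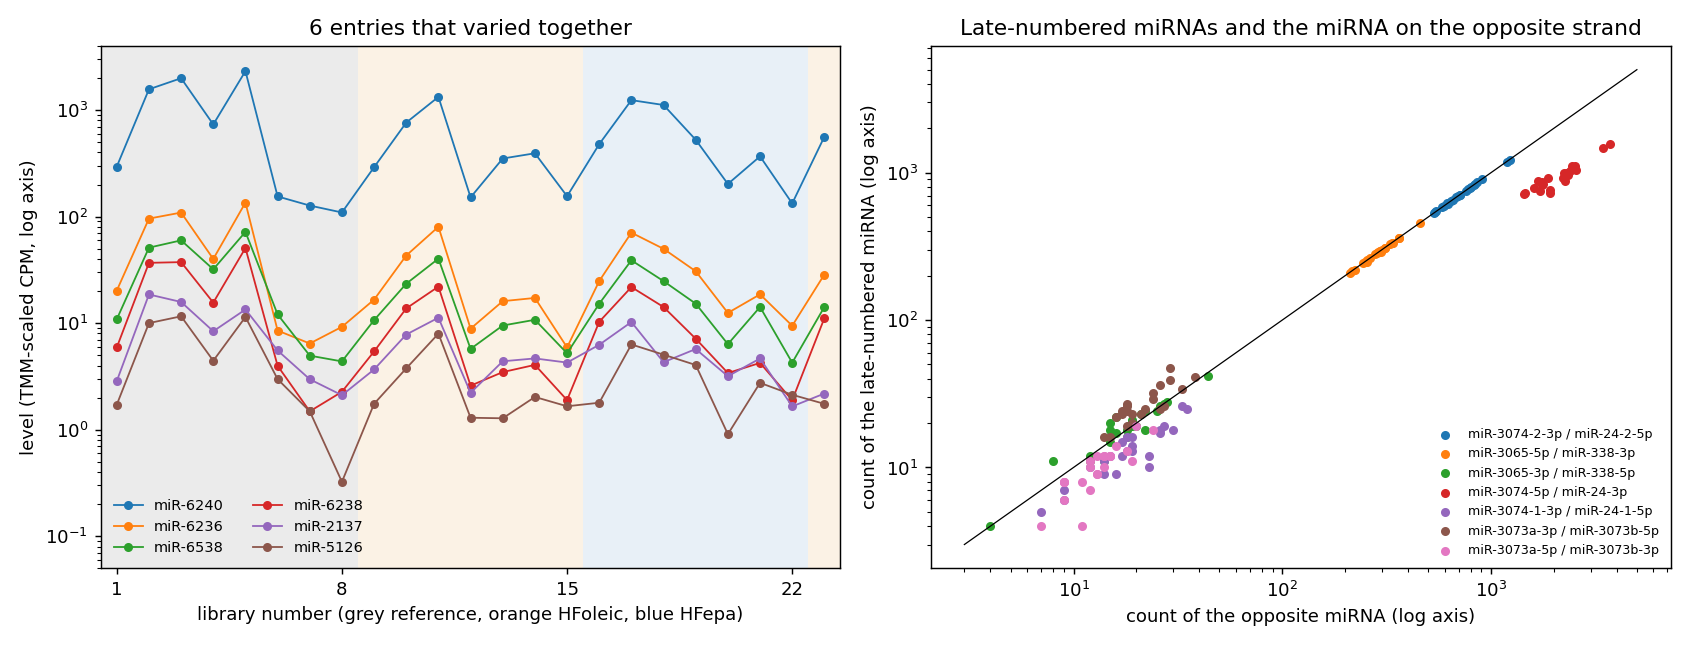
Left, level of the 6 entries of the fourth set in each library (TMM-scaled CPM, log axis), shaded by group, with shared peaks at libraries 2, 3, 5, 11 and 17. Right, count of a late-numbered miRNA against the count of the miRNA on the opposite strand in each of the 23 libraries (log axes) with the line of equal counts, on which miR-3074-2-3p and miR-3065-5p lie.

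Among the miRNAs that the study singled out as regulators on these same mice, 5 belong to the 75: miR-1948-3p, miR-5099, miR-7068-3p and miR-1198-5p, described above, and miR-7224-3p. That choice makes their direction no independent evidence. miR-7224-3p ranged from 0.599 to 2.92 CPM in the reference group, from 0.625 to 2.32 CPM in HFoleic and from 0.453 to 2.36 CPM in HFepa. The groups overlapped. The log2 fold change was -0.75 ± 0.34 in HFoleic (adjusted p = 0.15). In HFepa it was -0.51 ± 0.36 (adjusted p = 0.376).

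Of the 75, 74 had at least 1 count in every library and 30 had at least 10. The 46 tested entries that the naming rule did not pick had means of 1.54 to 38.3 CPM. One of them, miR-7219-3p, named after its values were seen, had 0.468 to 1.74 CPM in the 3 HFoleic libraries up to number 11 and 2.59 to 4.02 CPM in the other 5. Its log2 fold change in HFepa was 0.93 ± 0.33 (adjusted p = 0.0556, not called).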

How the data were processed

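The authors trimmed adapters with the FASTX-Toolkit, aligned reads by Bowtie within ncPRO-seq and deposited raw read counts per mature mouse miRNA of miRBase. The methods name the genome as GRCm38.p6 and mm9, and the processing notes as mm10, and coordinates given here are those of RefSeq for GRCm38.p6. Whether counting used strand is not given in the sources used here. The 23 scaled columns, the authors' group means, and their fold changes and p-values between groups were not used.

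From the counts, edgeR 4.0.16 in R 4.3.3 was run with filterByExpr, TMM factors, 1 quasi-likelihood fit over the 3 groups, and Benjamini-Hochberg adjustment over all 386 tested miRNAs. A call required an adjusted p below 0.05 with a log2 fold change of more than 0.25 in either direction. The standard error is the log2 fold change divided by the root of F. The test was checked on simulated data. Alternatives used DESeq2 1.42.0, limma 3.58.1 with quantile normalization, other filters, a term for the library number, and each library left out. DEGseq, named in the methods, was not run. Python 3.11.15 and SciPy 1.17.1 served the permutation tests. The entries, lists, marker miRNAs, tests and alternatives were chosen with earlier results of these data known. Entries were named if they were the examples miR-1948-3p, miR-5099, miR-7068-3p and miR-1198-5p, among the 10 most abundant, called in any comparison, listed by the study as regulators, or among the 3 on either side of 1 CPM; other arms and shared seeds could be added, and others are said to be chosen after their values were seen.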

Additional observations from a re-analysis of the deposited data

Results flagged for a closer look

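In 57 groups of libraries (19 named late-numbered miRNAs in 3 groups), the highest or lowest library was compared with the rest by Dixon's criterion, which marks about 1 in 20 groups by chance; 7 were marked. Library 3 of the reference group was behind 4 of them. miR-1948-3p measured 91.1 CPM there against 184.7 to 241.3 CPM in the other reference libraries, miR-1843a-5p 200.8 CPM against 302.1 to 365.0 CPM, and miR-1843b-5p 102.6 CPM against 152.1 to 182.9 CPM. miR-3074-2-3p was higher, with 176.8 CPM against 128.3 to 142.2 CPM. This library also had the lowest sum of the 3 hepatocyte markers, 112912 CPM; the part of that in these levels was not tested.

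In HFepa, miR-1948-5p measured 34.5 CPM in library 19 against 71.3 to 88.1 CPM in the others, and miR-1839-5p 284.6 CPM in library 16 against 353.3 to 382.9 CPM. In HFoleic, miR-7224-3p measured 2.32 CPM in library 10 against 0.625 to 1.42 CPM.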

How the results depend on the processing

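In HFoleic vs reference, where 3 were called, 1 was called with no filter, with at least 10 counts in every library or with only the 2 groups in the fit, and 0 with the term for the library number or in libraries 1 to 11 alone; leaving out single libraries gave 1 to 5. In HFepa vs reference, where 10 were called, 6 were called after quantile normalization with limma, 3 with no filter and 0 with the library-number term, and leaving out single libraries gave 5 to 11. The libraries behind these changes are named beside the counts. Over all tested miRNAs the number called fell too, but the number tested also changed. In HFoleic it was 48 of 386 in the main fit. In the order above, the others gave 29 of 1218, 40 of 297, 7 of 371, 1 of 386 and 0 of 409. In HFepa it went from 61 of 386 to 25 of 386, 43 of 1218 and 0 of 386. With at least 10 counts in every library, 30 of the 75 were tested, and miR-3082-3p and miR-7068-3p were not among them. DESeq2 called 2 in HFoleic, without miR-7068-3p, and 11 in HFepa, beside 25 and 46 of all 386 tested miRNAs. After quantile normalization limma called 2 in HFoleic, also without miR-7068-3p, beside 10 of all tested. In HFepa limma lost miR-1948-3p, miR-1198-5p, miR-1981-5p and miR-1964-3p. Scaling by library size called 2 and 9, both without miR-1839-3p, beside 47 and 58 of all tested miRNAs. HFepa vs HFoleic stayed at 0 in all settings run. Other causes of these changes were not tested.

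Among the called entries and the 4 examples of the rule, signs changed only in fits that take up the library number. With the term, miR-5099, miR-1948-3p and miR-1843b-3p in HFepa vs reference had log2 fold changes of -0.25, -0.0812 and 0.0129, and miR-7068-3p in HFepa vs HFoleic had 0.0286. In HFoleic vs reference miR-5099 had -0.34 with the term and -0.33 in libraries 1 to 11 alone, and miR-1948-3p had -0.12 in both. In HFepa vs reference, miR-5099, miR-1843b-3p and miR-7068-3p were called in all 23 fits that left out 1 library, and the other 7 in 14 to 22. Without the 6 variable entries, an alternative chosen after seeing the data, 2 and 10 were called, beside 45 and 60 of all tested miRNAs. With a library left out, the mean share of all counts in the 75 was 0.296% to 0.336% in the reference group. It was 0.266% to 0.282% in HFoleic and 0.288% to 0.310% in HFepa. No paired analysis was possible because the replicates of the groups carry no shared numbers. Counting error limits entries of a few CPM, and a change of the sizes seen for miR-7068-3p rests on a few reads per library.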
